A study of Rattus norvegicus with 24 samples.

Results

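Rotenone blocks complex I of the mitochondrial respiratory chain, and the question here was which transcripts of the rat brain stem differed from control in one direction after 1, 3 and 14 days of dietary rotenone. The members are the genes whose mean difference, rotenone minus control, had the same sign on all 3 days, and the test is of the mean of the 3 daily differences (the average). All 24 arrays were used, and because each day had its own control rats, the 3 daily differences shared no animal. Of 22093 genes with a symbol, 4452 were higher and 3022 lower on all 3 days, together 7474 genes, which is 20.2% and 13.7% of those measured. The sign alone sets these counts and they are a description, with no test.

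The animals were male RccHan Wistar rats, aged 7 to 8 weeks, in 6 groups of 4: untreated food or food with 400 ppm rotenone for 1, 3 or 14 days. Each array (Affymetrix Rat Transcriptome Array 1.0) held the brain stem RNA of 1 rat. Values are log2 intensities per transcript cluster, the array's unit for a gene.

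In a cell, complex I passes electrons from NADH to ubiquinone, and its block lowers ATP synthesis and oxygen use. Cells answer shifts in oxygen, glucose and protein folding load through separate gene programmes: HIF1 for oxygen, the Mondo factors with Txnip for glucose, the unfolded protein response for the endoplasmic reticulum (ER), HSF1 for the cytosol and SREBP2 for sterols. The brain stem holds glycinergic, serotonergic and noradrenergic neurons and motor nuclei, with much myelin. The labelled tissue was checked with Slc6a5, the glycine transporter gene, which was 12.98 to 14.11 in 23 rats and 9.73 in control rat 3 of day 1. Tph2, the serotonin synthesis gene of raphe neurons, was 9.33 to 12.33 in 21 rats, but 6.36 in control rat 1 of day 1, 6.55 in treated rat 3 of day 1 and 7.55 in control rat 1 of day 14.

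Some arrays differed in marker genes of neighbouring tissue, which touches several results. The mean log2 intensity of 17 cerebellar marker genes was 11.63 and 11.10 in control rats 1 and 3 of day 1, against 7.69 to 8.61 in the other 22 rats. Gabra6, a receptor subunit of cerebellar granule cells, averaged 12.02 in the day 1 controls and 6.60 to 8.09 in the other 5 groups. The 15 choroid plexus and ependyma markers ranged from 6.96 to 9.25 among the treated rats of day 14, and the 10 red cell genes differed by a median of 0.54, -0.67 and -3.14 on days 1, 3 and 14. In bulk tissue, fewer cells of a type and less RNA per cell cannot be told apart. List counts that changed without these 2 arrays, called the cerebellar arrays for their markers, are given both ways. Over all genes, 18.9% were higher and 17.2% lower on all 3 days without them, against 20.2% and 13.7% with all arrays.

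Only 2 of the 68842 transcript clusters passed the test of the average, which is 0.00291%: P4ha1, which fell, and a cluster without a gene name, TC1600000617.rn.1, which rose (limma, Benjamini-Hochberg adjusted p below 0.05 over all clusters). P4ha1 encodes the catalytic alpha subunit of prolyl 4-hydroxylase, which hydroxylates collagen prolines, and it is a target of HIF1. On day 1 the P4ha1 log2 intensity was 12.20, 12.17, 11.95 and 11.90 in the 4 control rats and 11.74, 11.74, 11.61 and 11.65 in the 4 treated rats. On day 3 the P4ha1 log2 intensity was 12.09, 12.31, 12.01 and 12.27 in the 4 control rats and 11.66, 11.58, 11.76 and 11.91 in the 4 treated rats. On day 14 the P4ha1 log2 intensity was 12.34, 11.98, 12.55 and 12.16 in the 4 control rats and 11.76, 11.31, 11.22 and 11.26 in the 4 treated rats. No treated rat reached the lowest control of its own day, and treated rats 2, 3 and 4 of day 14 held the 3 lowest values of all, with rat 1 above them.

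P4ha1 fell by 0.56 on the log2 scale (SE 0.0737, n = 12 treated and 12 control rats, limma adjusted p = 0.00977), a level 1.48-fold lower. Its daily differences were -0.37, -0.44 and -0.87 on days 1, 3 and 14 (SE of each 0.128), and their difference between days did not pass (interaction adjusted p = 0.962). Leaving out any 1 of the 24 arrays kept P4ha1 past the threshold, with adjusted p from 0.000826 to 0.0343. The call ended when cerebellar and choroid plexus marker levels were added as covariates (difference -0.57, adjusted p = 0.0958) and when only days 1 and 3 were averaged (-0.41, adjusted p = 0.567).

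On day 1 the level of TC1600000617.rn.1 was 5.41, 5.53, 5.80 and 5.48 in the 4 control rats and 6.28, 5.99, 5.97 and 6.35 in the 4 treated rats. On day 3 the level of TC1600000617.rn.1 was 5.26, 5.60, 5.72 and 5.26 in the 4 control rats and 5.75, 6.09, 5.81 and 6.08 in the 4 treated rats. On day 14 the level of TC1600000617.rn.1 was 5.78, 6.01, 6.02 and 5.51 in the 4 control rats and 6.24, 6.34, 6.29 and 6.32 in the 4 treated rats. This cluster is dim, with a mean level of 5.87 against a median of 6.24 over all clusters, and on each day every treated rat lay above every control rat. It rose by 0.51 (SE 0.0775, n = 12 and 12, limma adjusted p = 0.0452), with daily differences of 0.59, 0.47 and 0.47. The call was lost in 17 of 24 fits that left out 1 array (adjusted p from 0.0101 to 0.142) and in 7 of 12 other alternatives, among them quantile normalization (adjusted p = 0.168).

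**Figure D1:**
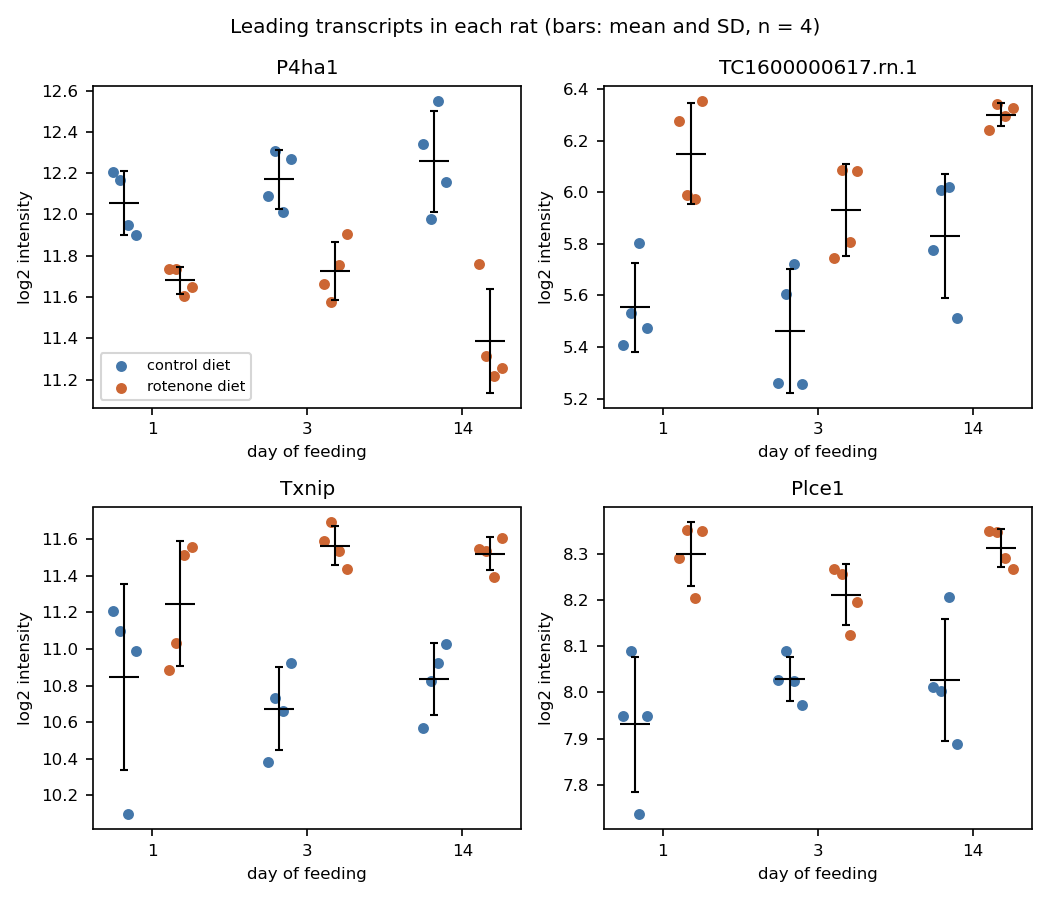
Log2 intensity (vertical axes, one scale per panel) of P4ha1, the unnamed cluster TC1600000617.rn.1, Txnip and Plce1 in each rat by day of feeding (horizontal axes), control diet in blue and rotenone diet in orange, with group mean and SD (n = 4). The colours do not overlap on any day for P4ha1, TC1600000617.rn.1 and Plce1, whereas for Txnip they overlap on day 1.

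The next genes by p were Txnip and Plce1, both with limma adjusted p = 0.0971, above the threshold. Txnip encodes thioredoxin-interacting protein, which binds thioredoxin and curbs glucose uptake. On day 1 the Txnip log2 intensity was 11.21, 11.10, 10.10 and 10.99 in the 4 control rats and 10.89, 11.03, 11.51 and 11.56 in the 4 treated rats. On day 3 the Txnip log2 intensity was 10.38, 10.73, 10.66 and 10.92 in the 4 control rats and 11.59, 11.69, 11.54 and 11.44 in the 4 treated rats. On day 14 the Txnip log2 intensity was 10.57, 10.83, 10.92 and 11.03 in the 4 control rats and 11.55, 11.54, 11.39 and 11.61 in the 4 treated rats. On days 3 and 14 every treated rat lay above every control rat, and on day 1 treated rats 1 and 2 lay within the control range.

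The Txnip average was 0.66 ± 0.11 (log2, SE, n = 12 and 12), a ratio of 1.58, with daily differences of 0.40, 0.89 and 0.69. Control rat 3 of day 1, at 10.10, was the lowest of all 24 and is 1 of the 2 rats with high cerebellar markers. Txnip passed in 1 of 24 fits that left out 1 array, the one without that rat (average 0.58, adjusted p = 0.0109), with adjusted p up to 0.23 in the others. Of 14 other alternatives it passed in 4, among them the fit without both cerebellar arrays (0.59, adjusted p = 0.0274), and adjusted p reached 0.43.

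Plce1 encodes phospholipase C epsilon, a Ras-regulated enzyme that makes inositol trisphosphate and diacylglycerol. On day 1 the Plce1 log2 intensity was 7.95, 8.09, 7.74 and 7.95 in the 4 control rats and 8.29, 8.35, 8.21 and 8.35 in the 4 treated rats. On day 3 the Plce1 log2 intensity was 8.03, 8.09, 8.03 and 7.97 in the 4 control rats and 8.27, 8.26, 8.12 and 8.20 in the 4 treated rats. On day 14 the Plce1 log2 intensity was 8.01, 8.00, 8.21 and 7.89 in the 4 control rats and 8.35, 8.35, 8.29 and 8.27 in the 4 treated rats. The groups did not overlap on any day, although the step was small, at 0.28 ± 0.0468 on average and 0.37, 0.18 and 0.29 by day. Plce1 passed in 5 of 14 alternatives other than left-out arrays, including quantile normalization (adjusted p = 0.0471), and in 1 of 24 left-out arrays, control rat 3 of day 14 (adjusted p = 0.0389).

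Among all 22093 genes, 8 (0.0362%) had treated and control values that did not overlap on any of the 3 days, 2 of them higher (Plce1 and Chad) and 6 lower (P4ha1, Plxna3, Dtx4, Eif2d, Cfap251 and 2700097O09Rikl). Chad encodes chondroadherin, a cartilage matrix protein that binds collagen. On day 1 Chad was 5.94, 6.25, 5.58 and 6.33 in the controls and 6.45, 6.39, 6.97 and 6.36 in the treated rats. On day 3 it was 6.48, 6.13, 6.31 and 6.30 in the controls and 6.90, 6.53, 6.79 and 6.75 in the treated rats. On day 14 it was 6.34, 6.48, 6.07 and 6.29 in the controls and 6.63, 6.86, 6.50 and 6.50 in the treated rats. Treated rat 3 of day 1 was the highest of all, and the average of Chad was 0.43 ± 0.0891 (log2 rotenone minus control, ± SE, n = 12 treated and 12 control rats; limma adjusted p = 0.178).

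Plxna3 encodes plexin A3, a receptor for semaphorins in axon guidance. On day 1 Plxna3 was 8.67, 8.52, 8.77 and 8.46 in the controls and 8.41, 8.31, 8.39 and 8.42 in the treated rats. After 3 days it was 8.54, 8.64, 8.48 and 8.44 in the controls and 8.31, 8.43, 8.29 and 8.33 in the treated rats. After 14 days it was 8.50, 8.39, 8.59 and 8.52 in the controls and 8.20, 8.11, 8.18 and 8.10 in the treated rats. The treated values lay below the controls each time, with the lowest at day 14, and the average was -0.25 ± 0.0446 (log2 rotenone minus control, ± SE, n = 12 treated and 12 control rats; limma adjusted p = 0.145). Dtx4, a Deltex ubiquitin ligase of the Notch pathway, had daily differences of -0.16, -0.12 and -0.41 and an average of -0.23 ± 0.0446, adjusted p = 0.169. The steps of Eif2d, a translation initiation factor, and of 2700097O09Rikl were smaller, at -0.15 ± 0.0428 and -0.14 ± 0.0401.

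Cfap251, a gene of cilia and flagella, also showed no overlap, but its day 1 values followed the cerebellar markers. Its day 1 controls were 9.23, 6.37, 8.70 and 6.48, and the treated rats 6.18, 6.06, 6.11 and 6.13. Control rats 1 and 3, the cerebellar pair, were the high ones, and the other 22 rats ranged from 6.04 to 6.48. The daily differences were -1.58, -0.19 and -0.23, and with those 2 arrays left out its average was -0.24 instead of -0.66.

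The 15 higher genes with the smallest p for the average had averages from 0.21 to 0.66 and limma adjusted p from 0.0971 to 0.185, so none passed. After Txnip and Plce1 came Edn1, which encodes the vasoconstrictor endothelin 1. On day 1 Edn1 was 6.35, 6.68, 6.43 and 6.56 in the controls and 7.05, 6.91, 6.90 and 7.03 in the treated rats. By day 3 it was 6.55, 6.53, 6.43 and 6.78 in the controls and 7.05, 6.83, 7.37 and 7.77 in the treated rats. By day 14 it was 6.44, 6.77, 6.81 and 6.86 in the controls and 7.11, 7.22, 6.87 and 6.75 in the treated rats. Treated and control rats were separate on days 1 and 3 and overlapped on day 14, where treated rat 4 lay inside the control range. The Edn1 average was 0.47 ± 0.0888 (log2 rotenone minus control, ± SE, n = 12 treated and 12 control rats; limma adjusted p = 0.154). Of the other 5 measured endothelin system genes, Ece1 and Edn3 were lower on all 3 days, by averages of -0.11 and -0.08 (adjusted p = 0.477 and 0.552).

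Of the other higher genes, Ccn2, which encodes a matricellular protein of connective tissue, had daily differences of 0.41, 0.34 and 0.35 (average 0.37 ± 0.08, adjusted p = 0.185). Heph encodes hephaestin, a ferroxidase that helps iron leave cells, and had 0.25, 0.43 and 0.28 (average 0.32 ± 0.0666, adjusted p = 0.178). Trdn encodes triadin, a protein of calcium release in muscle, and Cma1 encodes chymase, a mast cell protease. Their averages were 0.31 ± 0.0683 and 0.31 ± 0.0654. All 12 treated rats lay above their own day's control mean for Ccn2, Heph, Trdn and Cma1.

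The remaining 8 higher genes were Pramel53, Skint8, LOC102549277, Anxa13 (an annexin), Myh15 (a myosin heavy chain), Sowahd, Scgb1c1 (a secretoglobin) and Chad. Myh15 averaged 0.47 ± 0.102, but with 0.24, 0.25 and 0.91 by day most of it lay at day 14, and Scgb1c1 stood at only 0.03 on day 3. Of the 15, 12 lay below the median gene level of 7.34, whereas the 15 lower genes all lay above it. The split was similar among all genes of 1 sign: 3396 of 4452 higher ones lay below that level and 2370 of 3022 lower ones above it. The first gene beyond the list, Orc4, had an average of 0.19.

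**Figure D2:**
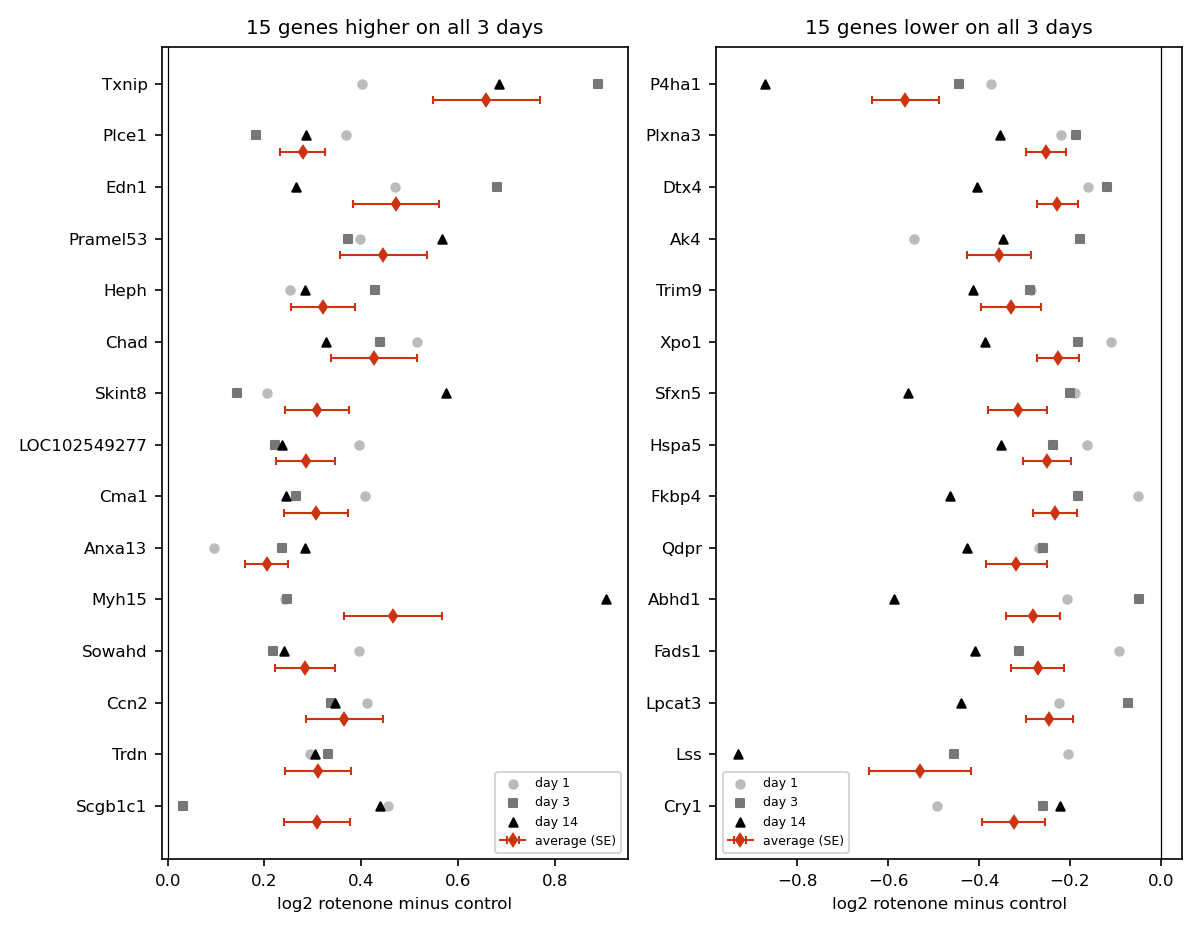
Daily log2 differences, rotenone minus control (horizontal axis), of the 15 higher (left) and 15 lower genes (right) with the smallest p for the average among genes of 1 sign on all days; circles are day 1, squares day 3, triangles day 14, and red diamonds the average with its SE. Day 14 gave the largest difference in 13 of the 15 lower genes and in 4 of the 15 higher ones. Among all genes of 1 sign it did so in 1476 of 3022 lower and 1994 of 4452 higher ones.

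The 15 lower genes had averages from -0.56 to -0.23, and apart from P4ha1 their limma adjusted p ran from 0.145 to 0.185. Day 14 held the largest daily difference in 13 of them, the exceptions being Ak4 and Cry1, which were lowest against control on day 1. Of all 3022 genes lower on all 3 days, 1476 had their largest difference on day 14. They include genes of adenine nucleotides, sterols and membrane lipids, protein folding, nuclear export and the clock.

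Ak4 encodes a mitochondrial adenylate kinase and is, like P4ha1, induced by hypoxia in other systems. On day 1 Ak4 was 10.13, 9.80, 10.13 and 9.64 in the controls and 9.48, 9.32, 9.21 and 9.52 in the treated rats. On day 3 it was 9.90, 9.74, 9.69 and 9.81 in the controls and 9.60, 9.82, 9.41 and 9.61 in the treated rats. On day 14 it was 9.72, 9.69, 10.01 and 9.72 in the controls and 9.49, 9.19, 9.51 and 9.56 in the treated rats. Groups were separate on days 1 and 14, and on day 3 treated rat 2 lay inside the control range. Its average was -0.36 ± 0.0701 (log2 rotenone minus control, ± SE, n = 12 treated and 12 control rats; limma adjusted p = 0.169), and -0.29 without control rats 1 and 3 of day 1, the 2 highest. Sfxn5, a mitochondrial carrier of the sideroflexin family, had -0.19, -0.20 and -0.56 by day (average -0.32 ± 0.0652, adjusted p = 0.178).

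Xpo1 encodes exportin 1, the receptor that carries proteins with a leucine-rich export signal out of the nucleus, and averaged -0.23 ± 0.0464, adjusted p = 0.178, with -0.11, -0.18 and -0.39 by day. Qdpr, which regenerates tetrahydrobiopterin for monoamine synthesis, averaged -0.32 ± 0.0668, adjusted p = 0.178, and Trim9, a neuronal ubiquitin ligase, -0.33 ± 0.0659, adjusted p = 0.178. For Xpo1, Qdpr and Trim9 all 12 treated rats lay below their own day's control mean. That held for 9 of the 15 lower genes, which were picked by p for the average of the same values, and for 0.693% of all genes. Above the mean it held for 10 of the 15 higher genes and 0.779% of all genes.

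The ER chaperone genes were, of the 28 lists, the one with the largest share of 1 sign with all arrays. Cholesterol synthesis genes had a larger share lower without the 2 cerebellar arrays (89.5% against 81.2%), without control rat 3 of day 1 alone (84.2% against 81.2%) and with the marker covariates (89.5% against 75%). Proteins of the ER list help to fold secreted and membrane proteins, and under ER stress their genes are induced together through the transcription factors ATF6 and XBP1. Of 16 measured, 12 (75%) were lower and 0 higher on all 3 days, against 13.7% lower over all genes and 20.1% over the brightest 5524 genes. None passed the test. At an unadjusted p below 0.05 for the average, 9 of 16 were lower, where 5.06% of all genes were lower and 6.19% higher. The list's median average was -0.13 (0.01 over all genes), and by day the median was -0.07, -0.08 and -0.22.

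Their promoters are shown because most members share a sign. The ER stress response element, CCAAT, then 9 bases of any kind, then CCACG, is the site known for ATF6 with NF-Y, and it was searched on both strands in the 250 bases before the RefSeq start of each gene (build GRCr8). It was found in 7 of the 14 listed genes that had a promoter (50%), against 21 of 27457 genes in all (0.0765%). Of the 10 that had a promoter and were lower on all 3 days, 6 hold it. The Hspa5 promoter (chr3:38452766-38453015, plus strand) is shown whole, and for 6 others the element with 5 bases on each side, all 5′ to 3′ on the gene's strand, with the fixed letters of the element, or of its reverse complement, in capitals.
Hspa5: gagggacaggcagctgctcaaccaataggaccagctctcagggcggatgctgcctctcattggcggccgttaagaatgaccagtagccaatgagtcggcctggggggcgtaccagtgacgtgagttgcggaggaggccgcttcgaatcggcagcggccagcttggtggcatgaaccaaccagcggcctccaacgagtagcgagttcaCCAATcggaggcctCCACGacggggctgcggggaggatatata
Hsp90b1, far element: caaacCCAATcgaaaggagCCACGcttcg
Hsp90b1, near element: gagtgCGTGGtgaggcacgATTGGtgggt
Calr: caacgCGTGGtcgaccctgATTGGcccag
Creld2: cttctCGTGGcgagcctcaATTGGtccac
Xbp1: acaggCCAATcgcagacggCCACGaccct
Dnajc3: caaagCCAATcagcgccaaCCACGaccca
Canx: cttgtCCAATcatcacgctCCACGaagaa

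The shown stretches lie at chr7:23012446-23012474, minus strand and chr7:23012342-23012370, minus strand for Hsp90b1, chr19:40213130-40213158, plus strand for Calr, chr7:121789234-121789262, plus strand for Creld2, chr14:84604553-84604581, plus strand for Xbp1, chr15:102432529-102432557, plus strand for Dnajc3 and chr10:35158064-35158092, minus strand for Canx. The last base of the element lies 25 bases before the start in Hspa5, 47 in Xbp1 and 54 in the near copy of Hsp90b1, and from 115 to 214 bases before it in the others. A match describes the letters only. Creld2, Xbp1, Dnajc3 and Canx are named for this match, after their values were seen.

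Hspa5, which encodes BiP, the main ER chaperone, was the lowest member by p. On day 1 Hspa5 was 14.19, 14.29, 14.15 and 14.18 in the controls and 14.17, 14.02, 13.88 and 14.09 in the treated rats. After 3 days it was 14.38, 14.26, 14.22 and 14.41 in the controls and 14.13, 14.04, 14.09 and 14.06 in the treated rats. After 14 days it was 14.42, 14.15, 14.54 and 14.35 in the controls and 14.19, 13.86, 13.96 and 14.05 in the treated rats. All 12 treated rats lay below their day's control mean, the groups were separate on day 3, and on days 1 and 14 1 treated rat each entered the control range. The average was -0.25 ± 0.0523 (log2 rotenone minus control, ± SE, n = 12 treated and 12 control rats; limma adjusted p = 0.178), with -0.16, -0.24 and -0.35 by day.

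Hsp90b1, the ER form of Hsp90, had -0.09, -0.14 and -0.23 by day (average -0.15 ± 0.0452, adjusted p = 0.278), again with 12 of 12 treated rats below the mean. Hyou1 averaged -0.17 ± 0.0545, adjusted p = 0.31, and Calr, which encodes calreticulin, -0.16 ± 0.0539, adjusted p = 0.32. Of the other genes shown with the element, Creld2, Xbp1 and Dnajc3 averaged -0.14, -0.12 and -0.16 (adjusted p = 0.34, 0.408 and 0.412). Canx, which encodes calnexin and also holds the element, stood at 0.06, 0.02 and -0.13 by day, without 1 sign, as did Sdf2l1, Dnajb9 and Herpud1.

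The mean log2 level of the 16 ER genes was 11.51 to 11.73 in day 1 controls and 11.52 to 11.62 in day 1 treated rats. On day 3 it was 11.68 to 11.74 in controls and 11.57 to 11.69 in treated rats, and on day 14 11.57 to 11.87 and 11.45 to 11.68. The ranges overlapped on each day. The count of 12 lower genes was 10 under quantile normalization, 13 without the 2 cerebellar arrays, and 9 to 13 when 1 array was left out. Of the astrocyte markers, 6 of 17 (35.3%) were lower and 0 higher on all 3 days, against 20.1% lower over the brightest 5524 genes. Among the 6 were Aqp4 at -0.22 ± 0.0786 and Slc1a3 at -0.18 ± 0.0859 (adjusted p = 0.346 and 0.447). Without the cerebellar arrays the astrocyte count was also 6, with Aqp4 at -0.25 and Slc1a3 at -0.05, and under quantile normalization it was 3 lower and 1 higher. The 17 astrocyte genes averaged 12.45 to 12.78 per rat in day 1 controls, 12.74 to 12.85 in day 3 controls and 12.51 to 12.84 in day 14 controls. In treated rats they averaged 12.65 to 12.74, 12.59 to 12.82 and 12.42 to 12.57. Their part in the ER result was not tested.

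**Figure D3:**
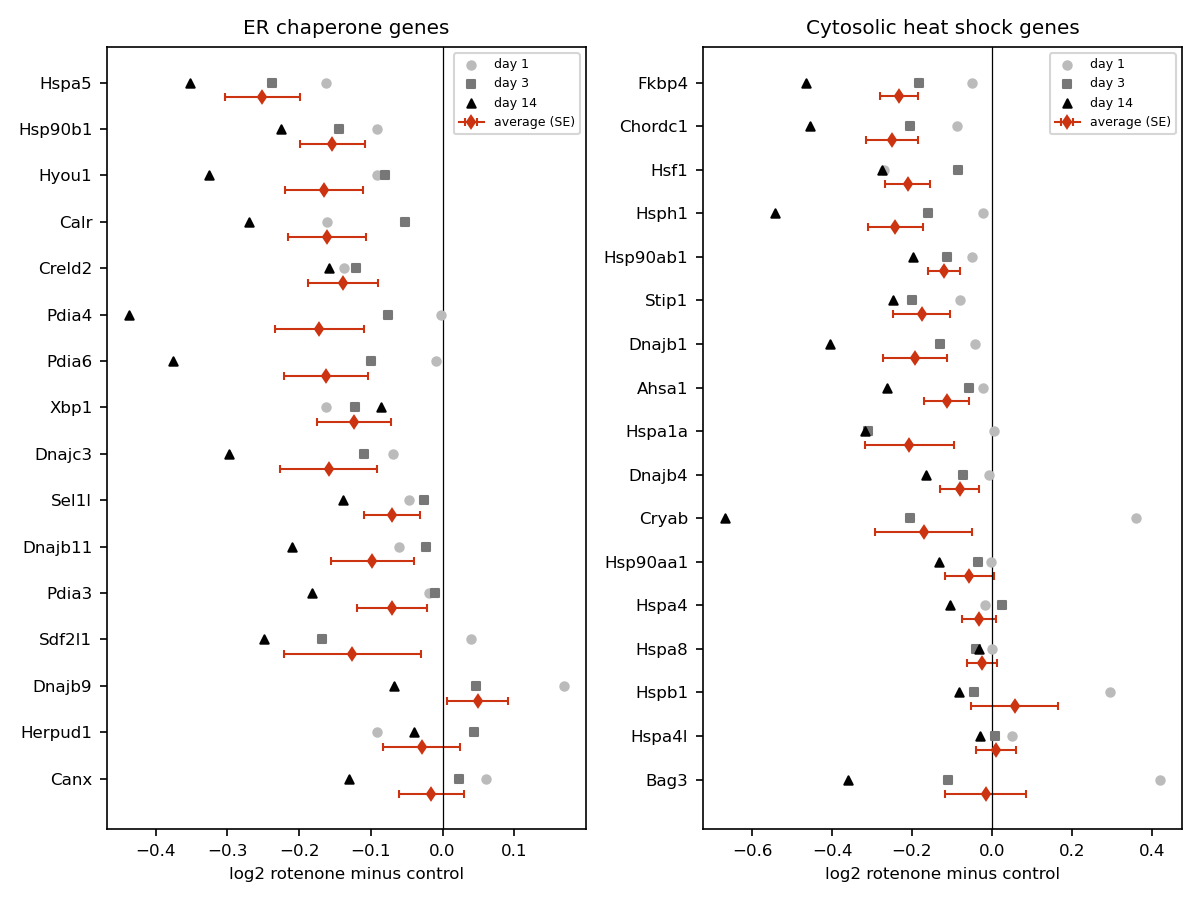
Daily log2 differences, rotenone minus control (horizontal axis), for the 16 ER chaperone genes (left) and the 17 cytosolic heat shock genes (right), in order of p for the average; symbols as in the plot of the 15 higher and 15 lower genes. In the left panel 12 genes have all 3 days below 0, and in the right panel 10.

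The cytosolic heat shock genes, which HSF1 controls, gave a similar count: 10 of 17 (58.8%) were lower and 0 higher on all 3 days, with a median average of -0.12. The share lower was 13.7% over all genes and 20.1% over the brightest 5524 genes. By day the median was -0.02, -0.11 and -0.26, and day 14 held the largest difference in each of the 10 genes. Among all genes lower on all 3 days, day 14 held it in 1476 of 3022. Fkbp4, an Hsp90 co-chaperone of steroid receptors, had -0.05, -0.18 and -0.46 by day (average -0.23 ± 0.0486, adjusted p = 0.178). Chordc1, another Hsp90 partner, averaged -0.25 ± 0.0647, adjusted p = 0.229. Hsf1, the transcription factor itself, averaged -0.21 ± 0.0566, adjusted p = 0.247, with all 12 treated rats below the control mean, and Hsph1, an exchange factor for Hsp70, -0.24 ± 0.0684, adjusted p = 0.265. The count was 6 lower and 1 higher under quantile normalization, 4 lower without treated rat 3 of day 1, 6 without control rat 2 of day 1, and 12 without the 2 cerebellar arrays.

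Of 39 HIF1 target genes, 12 (30.8%) were lower and 4 (10.3%) higher on all 3 days, with a median average of -0.04 and P4ha1 as the only one past the test. Over all genes 13.7% were lower and 20.2% higher, but the list is bright (median level 10.85), and over the brightest 5524 genes the shares were 20.1% and 10.5%. Under quantile normalization 9 (23.1%) were lower, and without the cerebellar arrays 13. Vegfa encodes the main growth factor of vessels. On day 1 Vegfa was 10.87, 10.93, 10.97 and 10.62 in the controls and 10.51, 10.43, 10.36 and 10.12 in the treated rats. By day 3 it was 10.71, 10.63, 10.59 and 10.54 in the controls and 10.25, 10.52, 10.18 and 10.81 in the treated rats. By day 14 it was 10.82, 10.63, 10.72 and 10.64 in the controls and 10.53, 10.60, 10.21 and 10.04 in the treated rats. Treated rats lay below all controls on days 1 and 14, and on day 3 treated rat 4 lay above them. Its average was -0.34 ± 0.0777 (log2 rotenone minus control, ± SE, n = 12 treated and 12 control rats; limma adjusted p = 0.185), and 11 of 12 treated rats lay below the control mean. Ldha, lactate dehydrogenase A, averaged -0.22 ± 0.0803, adjusted p = 0.354. Egln3, which encodes a HIF prolyl hydroxylase, had 0.32, 0.22 and -0.02 by day and so no common sign.

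The list for collagen hydroxylation and cross-linking held 5 lower (27.8%) and 3 higher (16.7%) of 18 genes. Without the cerebellar arrays it held 7 (38.9%) and 3 (16.7%). Over all genes 13.7% were lower and 20.2% higher, and 17.2% and 18.9% without those arrays. Serpinh1, which encodes the collagen chaperone HSP47, averaged -0.37 ± 0.0839, adjusted p = 0.185, with -0.22, -0.26 and -0.64 by day and 12 of 12 treated rats below the control mean. P4ha2, the sister of P4ha1, had -0.06, -0.06 and -0.07 by day (average -0.06 ± 0.046, adjusted p = 0.619) and P4hb, the shared beta subunit, 0.00 ± 0.0668, without 1 sign. The hypoxia response core ACGTG, searched on both strands in the same 250 bases and overlapping the E-box CACGTG, stands in 15 of 34 HIF1 targets with a promoter (44.1%) and in 4959 of 27457 genes in all (18.1%). It is not among the letters of the P4ha1 or Vegfa windows. Edn1, higher on all 3 days, holds 1 copy, shown with 10 bases on each side (chr17:22666874-22666898, minus strand), capitals marking the core on the other strand.
Edn1: tctccggctgCACGTtgcctgtggg

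The count of sterol synthesis genes depended on the day 1 controls. With all arrays, 5 of 19 (26.3%) were lower and 0 higher on all 3 days, against 13.7% lower over all genes. The list is bright (median level 10.72), and over the brightest 5524 genes 20.1% were lower. The median difference was 0.09 on day 1, -0.14 on day 3 and -0.41 on day 14. Lss encodes lanosterol synthase, which closes the sterol ring. On day 1 Lss was 11.09, 11.69, 10.32 and 11.46 in the controls and 10.90, 10.97, 11.14 and 10.73 in the treated rats. On day 3 it was 11.39, 11.57, 11.42 and 11.36 in the controls and 10.98, 11.15, 10.77 and 11.02 in the treated rats. On day 14 it was 11.48, 10.90, 10.93 and 11.09 in the controls and 10.21, 10.28, 10.17 and 10.02 in the treated rats. Control rat 3 of day 1, one of the cerebellar pair, was far below the other controls, the groups were separate on days 3 and 14, and the average was -0.53 ± 0.113 (log2 rotenone minus control, ± SE, n = 12 treated and 12 control rats; limma adjusted p = 0.178).

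The mean of the 19 sterol genes was 10.93, 11.25, 10.30 and 11.08 in control rats 1 to 4 of day 1, and 10.97, 10.88, 11.07 and 10.90 in the treated rats of that day. Without control rats 1 and 3 of day 1, 17 of the 19 (89.5%) were lower on all 3 days, against 17.2% of all genes in the same fit, and the median average was -0.25. Without control rat 3 alone the count was 16, and without control rat 2 alone, control rat 4 alone or treated rat 2 of day 1 alone, 2, 3 and 3. With the markers of cerebellum and choroid plexus as covariates it was 17, against 15.8% of all genes. In the fit without the 2 arrays, Lss passed at -0.68 (limma adjusted p = 0.002) and in its dimmer cluster at -0.46 (adjusted p = 0.0164), as did Cyp51 (lanosterol demethylase) at -0.42 (adjusted p = 0.0339), the latter named after its value was seen. With the covariates neither passed (adjusted p = 0.0958 for Lss and 0.392 for Cyp51). With all arrays Cyp51 had 0.11, -0.28 and -0.68 by day, without 1 sign. Idi1, Mvd and Srebf2, the transcription factor of these genes, were lower on all 3 days with all arrays, by averages of -0.31, -0.17 and -0.10 (adjusted p = 0.265, 0.397 and 0.404).

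**Figure D4:**
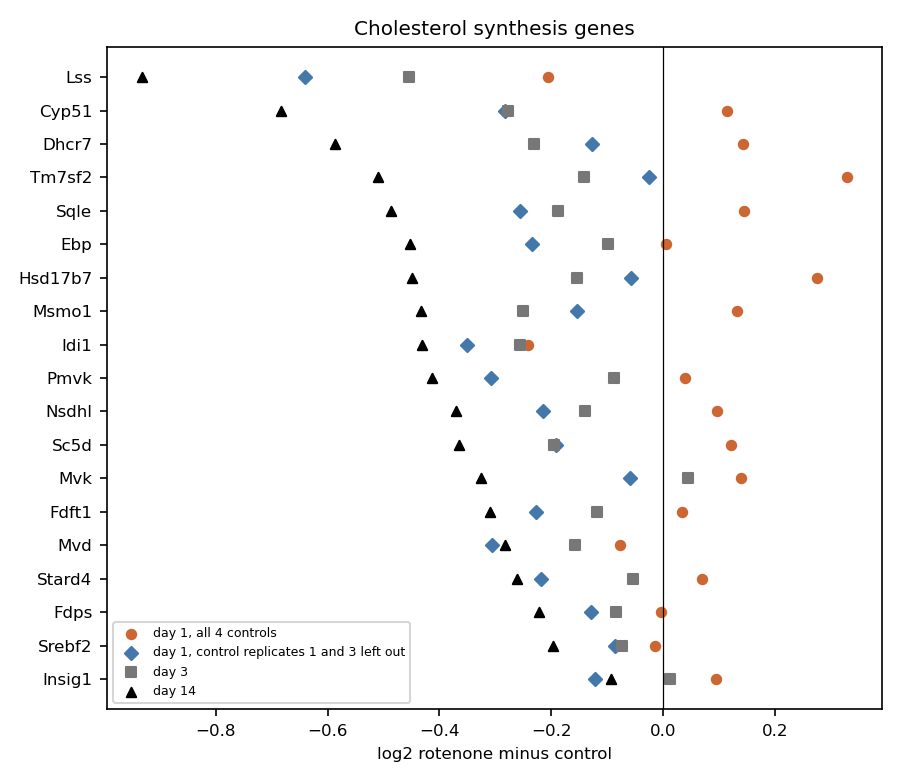
Log2 differences, rotenone minus control (horizontal axis), of 19 cholesterol synthesis genes on day 1 with all 4 controls (orange circles), on day 1 without control rats 1 and 3 (blue diamonds), on day 3 (grey squares) and on day 14 (black triangles). The day 1 points of all 19 genes lie further left once the 2 arrays are left out.

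Of lipid genes outside this list, Fads1 and Lpcat3 were among the 15 lower ones. Fads1, a fatty acid desaturase, averaged -0.27 ± 0.0574, adjusted p = 0.178, with -0.09, -0.31 and -0.41 by day. Lpcat3, which inserts polyunsaturated fatty acids into phospholipids, averaged -0.25 ± 0.0521, adjusted p = 0.178, with 12 of 12 treated rats below the control mean. Abhd1, another of the 15 lower genes and not assigned to lipids here, averaged -0.28 ± 0.0592, limma adjusted p = 0.178, but its day 3 difference was only -0.05.

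Clock genes lay on both sides of the controls. Of 19 measured, 4 (21.1%) were higher and 4 (21.1%) lower on all 3 days, against 20.2% and 13.7% of all genes, and without the cerebellar arrays 7 and 3. Cry1, a repressor of CLOCK and BMAL1, was among the 15 lower genes. On day 1 Cry1 was 8.41, 7.94, 8.31 and 7.79 in the controls and 7.59, 7.76, 7.50 and 7.63 in the treated rats. After 3 days it was 7.90, 8.01, 7.87 and 7.83 in the controls and 7.82, 7.60, 7.55 and 7.60 in the treated rats. After 14 days it was 7.91, 7.82, 8.15 and 7.65 in the controls and 7.66, 7.68, 7.57 and 7.74 in the treated rats. The groups were separate on days 1 and 3, with 2 high control rats (1 and 3) on day 1, and overlapped on day 14, and the average was -0.32 ± 0.07 (log2 rotenone minus control, ± SE, n = 12 treated and 12 control rats; limma adjusted p = 0.185). Without those 2 arrays it was -0.24.

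Dbp, a clock output factor, had 0.13, 0.29 and 0.47 by day (average 0.29 ± 0.0722, adjusted p = 0.218), and all 12 treated rats lay above the control mean. Bmal1 averaged -0.32 ± 0.0619, adjusted p = 0.169, but its differences of -0.27, 0.01 and -0.69 had no common sign. Nr1d1 and Bhlhe40, both repressors of the clock loop, averaged 0.35 and 0.27 (adjusted p = 0.305 and 0.34). The E-box CACGTG, the site of CLOCK and BMAL1, which reads the same on both strands, stands in the 250-base window of 5 of 17 clock genes (29.4%) and of 1698 of 27457 genes in all (6.18%). The clock genes with an E-box other than Nr1d1 and Bhlhe40 had no common sign, with averages from 0.06 to 0.18. Nr1d1 and Bhlhe40 are named for it after their values were seen, and their E-boxes are shown with 10 bases on each side, in capitals (chr10:84229630-84229655, minus strand, and chr4:143174220-143174245, plus strand).
Nr1d1: tcagctcccaCACGTGtctggggatc
Bhlhe40: cgttgtccaaCACGTGagactcatgt

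Of 35 genes for subunits of complex I, which rotenone blocks, 3 were higher and 4 lower on all 3 days, 0 reached an unadjusted p below 0.05 by limma, and the median average was -0.0014. The split of complex I subunits depended on scaling and arrays: 10 (28.6%) higher and 0 lower under quantile normalization, 1 and 6 (17.1%) after centring on the median, 0 and 6 (17.1%) with array weights, and 1 and 9 (25.7%) without the cerebellar arrays. All genes shifted with these settings too. They were 17.3% higher and 12.9% lower under quantile normalization, 11.2% and 21.5% after centring, and 22.7% and 15.4% with array weights. Of 28 Nrf2 target and glutathione genes, 3 were higher and 1 lower with all arrays, but 2 and 7 (25%) without the cerebellar arrays and 3 and 8 with the covariates. Over all genes 20.2% were higher and 13.7% lower with all arrays, and 18.9% and 17.2% without the cerebellar arrays. With the covariates the shares were 18.4% and 15.8%. Of 25 genes of the integrated stress response, 5 (20%) were higher and 3 (12%) lower, and 3 (12%) and 5 (20%) without the cerebellar arrays. Among them, Fgf21, a fasting hormone, averaged 0.23 ± 0.0739, adjusted p = 0.301, Nupr1 0.32 ± 0.138, adjusted p = 0.418 and Atf4, the central factor, -0.11 ± 0.0471, adjusted p = 0.406. Of 32 glucocorticoid and FoxO targets 5 (15.6%) were higher and 5 (15.6%) lower, and 4 (12.5%) and 1 (3.12%) without the cerebellar arrays. Plin4 averaged 0.26 ± 0.075, limma adjusted p = 0.269, and Gpd1 0.54 ± 0.165, limma adjusted p = 0.283. Differences of 1.20, 0.23 and 0.18 by day put most of the Gpd1 value on day 1.

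Immediate early genes held 3 higher (17.6%) and 4 lower (23.5%) of 17, and 5 (29.4%) and 4 (23.5%) without the cerebellar arrays. Over all genes the shares were 20.2% and 13.7%, and 18.9% and 17.2% without those arrays. The lower immediate early genes with all arrays were Npas4 and the 3 Nr4a receptors. Npas4, a neuronal activity gene, had -0.18, -0.16 and -0.24 by day (average -0.19 ± 0.0768, adjusted p = 0.395) and Nr4a2 -1.21, -0.15 and -0.19 (average -0.52 ± 0.191, adjusted p = 0.367), and for both all 12 treated rats lay below the control mean. Without the 2 cerebellar arrays the Nr4a2 average was -0.21 and that of Npas4 -0.14. Of 26 cell cycle genes 2 were higher and 4 lower (2 and 8 without the cerebellar arrays, 3 and 10 under quantile normalization, 0 and 12 after centring). Over all genes 12.9% were lower under quantile normalization and 21.5% after centring. Among the 4 was Mki67, the proliferation marker, at -0.43 ± 0.135, adjusted p = 0.294, with -0.00, -0.48 and -0.81 by day. Ccna2 at -0.19 ± 0.0539, adjusted p = 0.265 and Plk1 at -0.15 ± 0.0456, adjusted p = 0.278 were also among them. Mal and Opalin, 2 myelin genes, were higher on all 3 days at 0.23 and 0.21 (adjusted p = 0.396 and 0.456), the only 2 of 16 in their list. Without the cerebellar arrays Mal was 0.14 and Opalin 0.08, and the myelin list held 1 higher and 4 lower.

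In the red cell (10 genes), oligodendrocyte precursor (12), meningeal (14) and metallothionein (4) lists, 0 genes had 1 sign on all 3 days with all arrays. Without the cerebellar arrays 4 of the 12 precursor genes (33.3%) and 1 metallothionein were lower, and with the covariates 5 precursor genes (41.7%). The precursor genes had a median difference of 0.19 on day 1, -0.12 on day 3 and -0.33 on day 14, and the metallothioneins 0.95, 0.01 and -0.39. Of 22 brain stem neuron genes 1 was higher and 0 lower with all arrays. Without the cerebellar arrays 1 was higher and 9 (40.9%) lower, against 17.2% of all genes lower, with a median average of -0.13. With the covariates the counts were 1 and 12 (54.5%), against 15.8% of all genes lower. Of 17 cerebellar genes 0 were higher and 5 lower, and 2 and 5 without those arrays.

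In the other lists, several counts also depended on the cerebellar arrays. Over all genes 20.2% were higher and 13.7% lower with all arrays, and 18.9% and 17.2% without the cerebellar pair. Of 20 thioredoxin, arrestin-domain and Mondo genes 2 were higher and 2 lower with all arrays, and 2 and 6 without the pair. Of 14 phospholipase C genes 3 were higher and 1 lower, and 5 and 0 without the pair. Insulin-like growth factor genes (15) held 1 and 1, and 2 and 1 without it. Glycolysis genes (22) held 2 higher and 6 lower (27.3%), and 1 and 8 (36.4%) without it. This list is bright (median level 13.81), and 20.1% of the brightest 5524 genes were lower with all arrays. Microglial genes (20) held 1 and 1, then 1 and 3, endothelial and pericyte genes (22) 0 and 3, then 0 and 5, and choroid plexus and ependymal genes (15) 1 and 1, then 2 and 0.

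**Figure D5:**
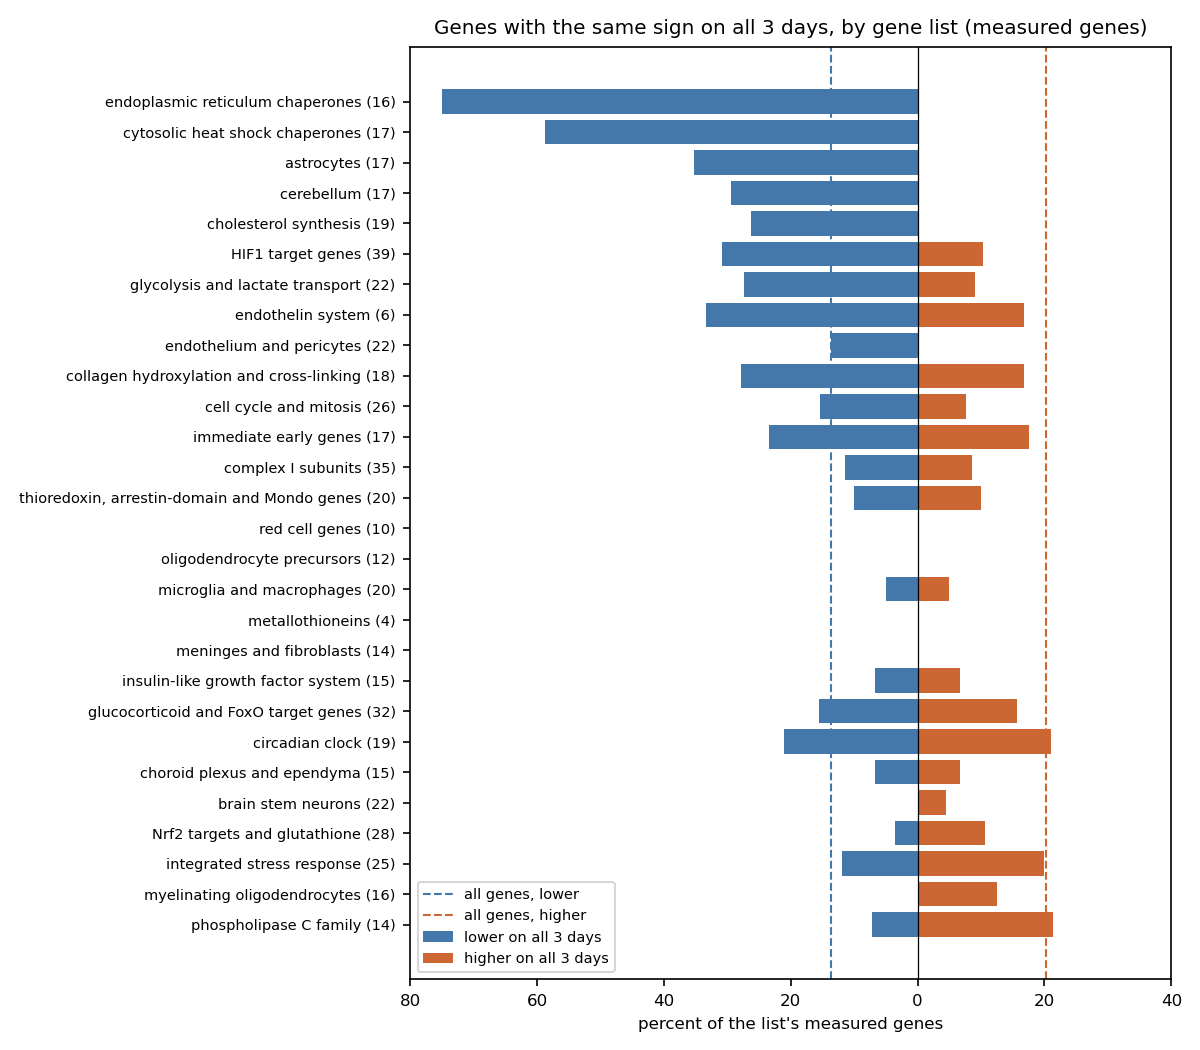
Share of each list's measured genes (number in brackets) that, with all arrays, were lower (blue, to the left) or higher (orange, to the right) on all 3 days, with dashed lines at the shares over all genes (13.7% lower and 20.2% higher). ER chaperones reach 75% lower and cytosolic heat shock genes 58.8%, and 4 lists hold no gene of 1 sign.

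The direction of the whole set went with brightness and scaling. In the dimmest 5523 genes 38.2% were higher and 2.63% lower on all 3 days, and in the brightest 5524 genes 10.5% and 20.1%. The median average over all clusters was 0.03. Centring each array on its median turned the split over clusters from 14943 higher and 7667 lower to 9589 and 12973, and over genes from 4452 and 3022 to 2469 and 4754. Counts of higher against lower genes over the whole array are given with no direction of their own. For ER chaperones the count lower was 12 under that centring, and 10 under quantile normalization.

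The daily differences were weakly correlated. Across genes, which are not independent replicates, the daily differences had a Pearson r of 0.0973 between days 1 and 3, 0.113 between days 1 and 14 and 0.184 between days 3 and 14 (22093 genes, with separate rats for each day), and 54.2%, 57.8% and 55.6% of genes shared a sign. The test of a difference between the days passed for 0 of 68842 clusters (0%; limma moderated F-test, adjusted), and at an unadjusted p below 0.05 for 3514 (5.1%). Over all clusters, 320 were higher and 120 lower by at least 0.25 (log2) on each day, and 6 and 5 by at least 0.5.

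Of the clusters without a symbol, 2 in each direction had the smallest p. TC0600001968.rn.1 averaged 0.37 ± 0.066, adjusted p = 0.145, after TC1600000617.rn.1 the next higher one. TC0800000767.rn.1 averaged -0.63 ± 0.114, adjusted p = 0.145 and TC0400002826.rn.1 -0.50 ± 0.0963, adjusted p = 0.169, with daily differences of -0.53, -0.42 and -0.54 at a mean level of 16.64. For each of the 3, all 12 treated rats lay on 1 side of their day's control mean.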

How the data were processed

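Brain stem RNA from 24 rats was hybridised to Affymetrix RTA 1.0 arrays, 1 array per rat. The authors applied guanine cytosine count normalization, signal space transformation and RMA, per the labels and the study's methods, and deposited 1 linear intensity per transcript cluster; the genome build is not given in the sources used here. After removal of 1738 control probe sets, log2 was taken of 68842 clusters, and a mean per treatment and day was fitted in limma 3.58.1 (R 4.3.3), with Benjamini-Hochberg adjustment over all clusters and a threshold of 0.05. A symbol came from GEO's platform annotation: 23446 clusters had 1 symbol, 505 several and 44891 none. The brightest cluster stood for each of 22093 genes. The fit was tested on simulated data.

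Named were the genes past the test, the 15 higher and 15 lower genes with the smallest p among those of 1 sign on all 3 days, the genes without overlap on any day and up to 4 leading members of each list. Egln3, P4ha2, P4hb, Sdf2l1, Dnajb9, Herpud1, Canx, Creld2, Xbp1, Dnajc3, Nr1d1, Bhlhe40, Cyp51 and Orc4 were named after their values were seen. The members and the 28 lists, with 540 of 564 genes measured, were chosen with earlier results of these data known. Promoter sequences are RefSeq's (GRCr8), which held 29 of the 33 named genes looked up. Alternatives covered scaling, moderation, filters, array weights, covariates, days and left-out arrays. The number of arrays limits the precision.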

Additional observations from a re-analysis of the deposited data

Results flagged for a closer look

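In 25 of the 432 combinations of 72 named genes with 6 groups of 4 rats, the highest or lowest rat stood apart from the other 3: its gap to the nearest of them, divided by the group's range, exceeded the critical value of Dixon's test for 4 values. Chance gives about 1 such group in 20. Each value below is a log2 intensity, with the range of the other 3 rats. In control rat 1 of day 1, Lpcat3 was 10.79 against 10.39 to 10.42. In control rat 3 of day 1, Canx was 15.37 against 15.61 to 15.66 and Cyp51 was 14.07 against 15.33 to 15.57. In control rat 1 of day 3, Hyou1 was 11.04 against 10.90 to 10.92. In control rat 4 of day 3, Heph was 7.13 against 7.51 to 7.56 and Ccna2 was 6.62 against 6.47 to 6.48. In control rat 2 of day 14, Trdn was 6.58 against 6.39 to 6.41, Hyou1 was 10.87 against 11.10 to 11.13 and Hsph1 was 13.36 against 13.72 to 13.75. In control rat 3 of day 14, Ak4 was 10.01 against 9.69 to 9.72 and Heph was 7.44 against 7.59 to 7.59. In treated rat 2 of day 1, Abhd1 was 8.74 against 9.00 to 9.06. In treated rat 3 of day 1, Chad was 6.97 against 6.36 to 6.45 and Hsf1 was 7.85 against 8.02 to 8.03. In treated rat 2 of day 3, Fads1 was 14.98 against 14.68 to 14.72 and Ccna2 was 6.51 against 6.21 to 6.25. In treated rat 4 of day 3, Creld2 was 8.19 against 7.92 to 7.96. In treated rat 1 of day 14, Fkbp4 was 11.78 against 11.63 to 11.64, Hyou1 was 10.88 against 10.65 to 10.69, Dnajc3 was 9.93 against 9.55 to 9.60, Hsph1 was 13.34 against 13.02 to 13.03 and Bmal1 was 9.22 against 8.72 to 8.79. In treated rat 2 of day 14, Bhlhe40 was 12.36 against 11.62 to 11.72. In treated rat 3 of day 14, Trdn was 7.05 against 6.61 to 6.68. In treated rat 4 of day 14, Plk1 was 6.56 against 6.64 to 6.66.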

How the results depend on the processing

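The averages of 72 named genes and clusters were compared over the alternatives. Among these the sign turned only for Canx, to 0.0162 under quantile normalization and 0.0418 with only days 1 and 3. Egln3, P4ha2, P4hb, Sdf2l1, Dnajb9, Herpud1, Orc4, Ece1 and Edn3 were not compared in this way. The 2 clusters past the test became 1 after centring each array on its median, 1 with the replicate block, 1 with only days 1 and 14, 1 with only days 3 and 14, 0 with only days 1 and 3 and 0 with the 2 marker covariates. They became 4 among clusters above the median level, 5 without moderation, 7 without control rats 1 and 3 of day 1, 9 with array weights and 16 among clusters with 1 symbol, where fewer clusters are tested. An unadjusted ANOVA treatment P under 0.001, taken alone, held for 327 clusters (0.475%), 154 higher and 173 lower. The study's methods name that P for brain stem together with a Kruskal-Wallis test and a fold-change cut-off, which were not applied here. Leaving out 1 array gave 1 to 9 clusters past the adjusted limma test (9 without control rat 3 of day 1, 7 without treated rat 1 of day 14, 4 without control rat 3 of day 14). The cause of these shifts was not tested. The difference between days, past the test in 0 clusters, was past it in 1 with trend and robust priors, 1 among clusters above the median level, 3 with array weights and 0 to 5 with 1 array left out. The 22610 clusters of 1 sign (66.1% of them higher) became 10521 among clusters above the median level and 7927 among those with 1 symbol, by the smaller number examined, and ranged from 20752 to 25434 with 1 array left out. The share higher was 53.6% under quantile normalization and 42.5% after centring. The 440 clusters past 0.25 on each day were 280 under quantile normalization and 11 past 0.5. Arrays with the same replicate number did not deviate together (mean r -0.0208 over 60 pairs, from -0.282 to 0.295, against 0.00687 over 180 other pairs). For 3 of 24 arrays, the mean r with arrays of other groups was highest for their own number. The numbers were therefore not taken to pair rats. With the replicate block P4ha1 stayed past the test and TC1600000617.rn.1 did not (adjusted p = 0.108), as in 17 of 24 fits without 1 array. Dim clusters limit the precision, since signal over background was not analysed here.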
